A study of Mus musculus with 5 samples.

Results

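The jelly that fills the endocardial cushions, the precursors of the heart valves, was described here through 10 genes that make it, hold it together, bind it or cut it. They were Has2, Vcan, Hapln1, Cd44, Hyal1, Hyal2, Adamts1, Adamts5, Adamts9 and Adamts15. They were chosen by name for these roles, with results of these data already known. All 10 were found by symbol in the deposited expression table, with 1 transcript each, among 14697 transcripts in all.

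Hyaluronan is a very long, water-binding sugar polymer that enzymes of the cell membrane spin out into the space between cells. Versican, a large proteoglycan with chondroitin sulfate side chains, binds to hyaluronan, and link protein locks the pair together. In the embryonic mouse heart this network swells the cushions and is the ground in which endocardial cells become mesenchyme. Later the cushions thin into leaflets while ADAMTS metalloproteases cleave versican and hyaluronidases break hyaluronan down.

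Expression was measured by RNA-seq in the atrioventricular canal (AVC), the part of the heart where the cushions form, of mouse embryos (C57BL/6) at embryonic day 12.5. Control embryos, labelled wild type (WT), had the genotype Sox9fl/fl:+/+, and mutant embryos (Sox9 cKO) had the genotype Sox9fl/fl:Tie2-Cre/+. Both groups thus carried floxed Sox9, and the mutants alone carried Cre. Tie2-Cre acts in endothelial cells and their descendants, among them cushion mesenchyme, and in blood lineages, so Sox9 in other cells of the canal is not its target. AVCs were pooled by genotype and 2 libraries were made from each pool, but these were merged in the table, which leaves a single value for WT and a single value for cKO. With neither the replicate spread nor the read depth known, the genotypes were compared by size of difference and no p-value is given. The samples held mesenchyme, endothelium and myocardium, per the labels, and Postn, Pecam1 and Tnnt2, defining markers of these in turn, were all present in both genotypes. In such whole tissue, fewer cells of a type and less RNA per cell cannot be told apart.

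Sox9, the gene deleted, stood at 36.7 nFPKM in WT and 14.7 nFPKM in cKO, 39.9% of the WT level. The nFPKM is the authors' normalized FPKM, a level per length of transcript. Setting it side by side between genes assumes that their further normalization, which is not described, allows this. Each difference is given as the log2 ratio of cKO to WT with a pseudocount of 1. The median of this ratio was -0.11 over the 13793 transcripts that reached 1 nFPKM in WT or in cKO. The relative log2 ratio is the ratio after subtraction of that median, and it was -1.16 for Sox9. All 10 genes passed this filter, each with more than 8 nFPKM in both genotypes.

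None of the 10 genes met the rule of a 2-fold difference, which 82 transcripts (0.595%) met in the higher and 135 (0.979%) in the lower direction. After subtraction of the median those numbers were 115 higher and 93 lower. None met a smaller rule of 1.5-fold on the relative ratio, which 3.44% of transcripts met in the higher and 2.82% in the lower direction. Adamts15 and Has2 had the lowest relative log2 ratios of the 10, at -0.52 and -0.40, and Adamts5, Cd44 and Adamts9 had the highest, at 0.48, 0.38 and 0.35. The other 5 lay between -0.16 and 0.11. The median of the 10 was 0.02, with 5 above and 5 below the all-transcript median, so the group as a whole was not displaced to one side. In nFPKM, 4 of the 10 were higher and 6 lower in cKO, beside 4407 higher and 9386 lower among all transcripts past the filter.

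**Figure D1:**
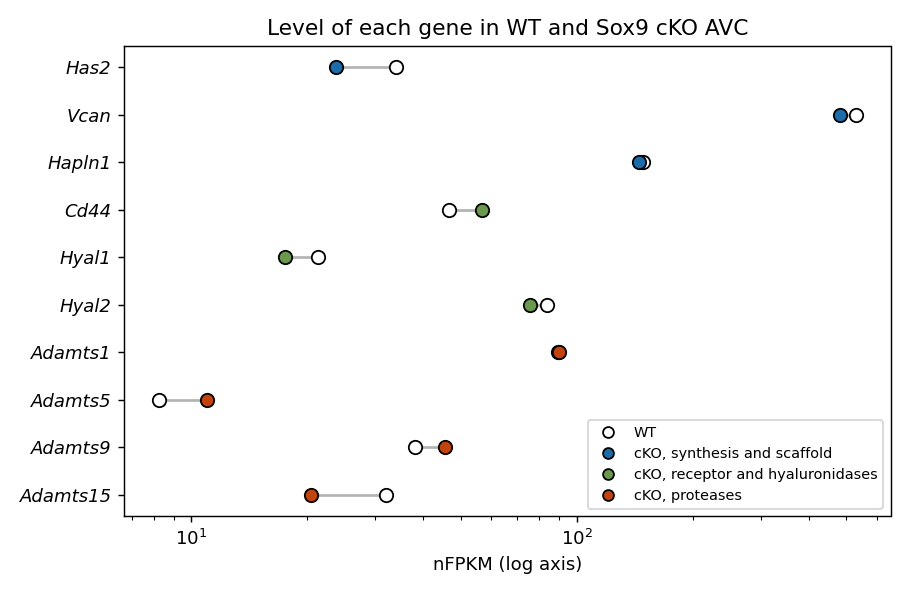
Level of each gene in nFPKM (log axis) in WT (open circles) and cKO (filled circles, coloured by role), with 1 merged value per genotype and no error bars. Vcan stood highest in both genotypes and Adamts5 lowest, and the widest gaps are those of Adamts15, with 32.0 nFPKM in WT and 20.4 in cKO, and Has2, with 34.0 and 23.7.

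The genes that make and scaffold the jelly were all lower in nFPKM in cKO, by unequal amounts. So were 9386 of the 13793 transcripts past the filter, and for Hapln1 the direction turned once the median was subtracted. Has2, the main hyaluronan synthase of the embryonic heart, stood at 34.0 nFPKM in WT and 23.7 nFPKM in cKO. The cKO level was 69.6% of the WT level, a relative log2 ratio of -0.40. Over all transcripts, 6.37% had a lower relative ratio than Has2. Vcan, which encodes the core protein of versican, was among the most abundant transcripts of the canal, above 98.8% of all transcripts in WT. It stood at 530 nFPKM in WT and 484 nFPKM in cKO, a relative log2 ratio of -0.03. The difference of Vcan in nFPKM was the widest of the 10, at -46.1, yet in proportion it was small, since the cKO level was 91.3% of WT. Hapln1, which encodes the link protein, stood at 149 and 145 nFPKM. Its relative log2 ratio was 0.07, and it was -0.04 before the median was subtracted.

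Within each genotype, the scaffold genes kept nearly the same proportion to each other, while the synthase did not. Link protein transcript was 28.1% of the Vcan level in WT and 29.9% in cKO. Has2 was 6.42% of the Vcan level in WT and 4.90% in cKO, 1.31-fold less. These ratios within a genotype do not depend on the centring. No replicate error is known for them.

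Among the genes whose products bind or break down hyaluronan, the receptor stood higher in cKO and both hyaluronidases stood lower in nFPKM. Most transcripts past the filter were likewise lower in nFPKM. Cd44, the main cell-surface receptor for hyaluronan, stood at 46.7 nFPKM in WT and 56.7 nFPKM in cKO, a relative log2 ratio of 0.38. Over all transcripts, 8.42% had a higher relative ratio. Hyal2, a hyaluronidase tethered to the cell membrane that cuts long chains, stood at 83.7 and 75.7 nFPKM (-0.04). Hyal1, the lysosomal hyaluronidase that digests the pieces further, stood at 21.3 and 17.5 nFPKM (-0.16). The relative ratios of both lay well inside the spread of transcripts of like level.

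Set against the synthase, both the receptor and the hyaluronidases stood higher in cKO. The Cd44 level was 1.37 times that of Has2 in WT and 2.39 times in cKO, a 1.74-fold difference. Before subtraction of the median, the larger share came from the lower Has2 value (log2 ratio -0.50, against 0.27 for Cd44). After subtraction the shares were nearly equal (-0.40 and 0.38). The sum of Hyal1 and Hyal2 was 3.09 times the Has2 level in WT and 3.93 times in cKO, a 1.27-fold difference. That sum itself was lower in cKO, at 93.2 nFPKM against 105 nFPKM in WT. It leaves out the further genes of hyaluronan breakdown given below, of which 5 passed the filter and were higher in cKO. Transcript ratios of this kind do not measure enzyme activity or the amount of hyaluronan.

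The 4 proteases that cleave versican did not move as a group. Adamts1, the most abundant of them, was nearly equal, at 89.4 nFPKM in WT and 89.9 nFPKM in cKO (relative log2 ratio 0.11). Adamts9, which helps to clear versican from the developing mouse heart, stood at 38.2 and 45.5 nFPKM (0.35). Adamts5, whose loss in mice leaves versican uncleaved in thickened valves, was the least abundant and stood at 8.25 and 11.0 nFPKM (0.48). Adamts15, another versican-cleaving member of the family, went the other way, from 32.0 to 20.4 nFPKM (-0.52). Over all transcripts, 3.89% had a lower relative ratio than Adamts15 and 5.39% a higher one than Adamts5. Before subtraction of the median, the log2 ratio of Adamts15 was -0.62, past 1.5-fold, a rule that 4.52% of transcripts met in the lower direction on that scale.

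**Figure D2:**
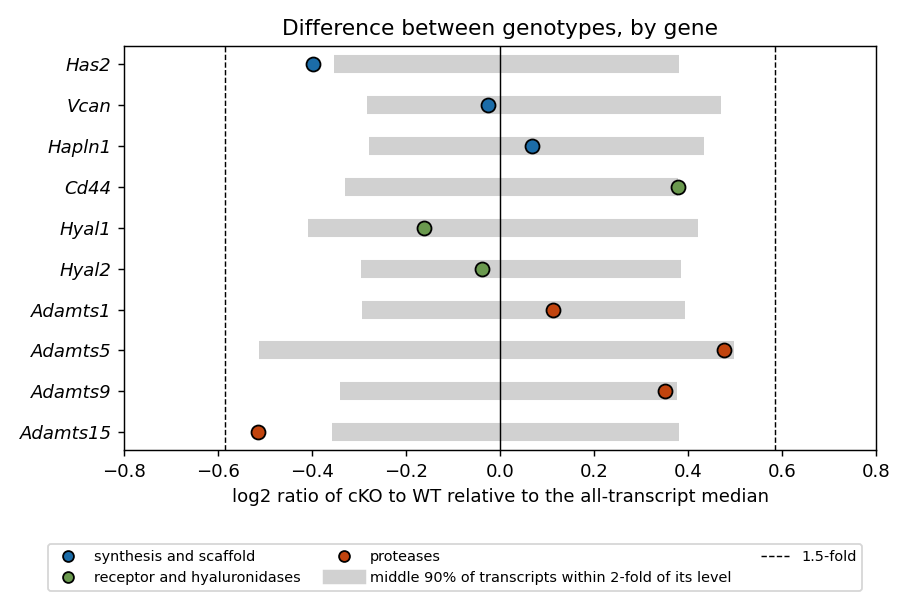
Relative log2 ratio of cKO to WT for each gene (points, coloured by role), beside the middle 90% of transcripts whose level is within 2-fold of that gene's (grey bars) and the 1.5-fold lines (dashed). Points are single values without replicate error. Adamts15 (-0.52) and Has2 (-0.40) lie beyond the low end of their bars, Cd44 (0.38) lies at the high end of its bar, and no point reaches a dashed line.

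Since ratios spread more widely among weak transcripts, each gene was also set beside transcripts within 2-fold of its own level. The middle 90% of relative log2 ratios of such transcripts ran from -0.36 to 0.38 for Adamts15, and from -0.35 to 0.38 for Has2, so both lay below it. For Adamts5 it ran from -0.51 to 0.50, and its value of 0.48 lay inside. For Cd44 the upper end was 0.38, and its value lay just beyond it. Adamts9, at 0.35, lay inside an upper end of 0.38. In all, 7 of the 10 genes lay inside the middle 90%.

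The contrast of jelly with proteases came out small in sum and divided in its parts. The 4 proteases added up to 168 nFPKM in WT and 167 nFPKM in cKO. Relative to Vcan, the sum was 31.7% in WT and 34.5% in cKO, a 1.09-fold difference. The makeup of that sum differed more than its size. Adamts15 made up 19.1% of it in WT and 12.3% in cKO, while Adamts9 made up 22.8% and 27.3% and Adamts5 4.92% and 6.58%. Adamts1 supplied 53.3% in WT and 53.9% in cKO. Without Adamts15 the other proteases came to 25.6% of the Vcan level in WT and 30.3% in cKO, a 1.18-fold difference.

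**Figure D3:**
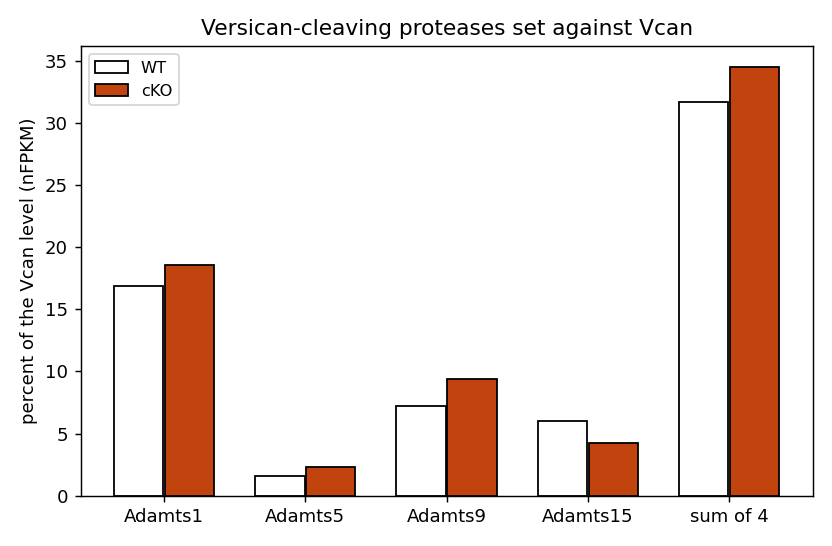
Level of each versican-cleaving protease, and of their sum, as a percentage of the Vcan level in the same genotype (open bars WT, filled bars cKO; 1 value per bar, no replicate error). Adamts1, Adamts5 and Adamts9 have taller bars in cKO and Adamts15 a shorter one, and the sums are 31.7% and 34.5%.

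Several of the 10 genes lie next to each other on the chromosomes, by the order of named protein-coding genes in RefSeq's mouse annotation (assembly GRCm38.p6). Hapln1 and Vcan are neighbours on chromosome 13, Hyal2 and Hyal1 on chromosome 9, and Adamts1 and Adamts5 on chromosome 16. The relative log2 ratios of neighbours were 0.07 and -0.03 for Hapln1 and Vcan, -0.04 and -0.16 for Hyal2 and Hyal1, and 0.11 and 0.48 for Adamts1 and Adamts5. Adamts15 lies next to Adamts8, a further protease of the family, also on chromosome 9. These last neighbours stood on opposite sides of the all-transcript median, with Adamts8 at 27.6 nFPKM in WT and 32.2 nFPKM in cKO (0.32). Xrcc4, a DNA repair gene on the other side of Vcan, stood at 27.2 and 19.0 nFPKM (-0.39). Cyyr1, on the other side of Adamts1, stood at 4.26 and 6.32 nFPKM (0.58). The remaining measured neighbours from outside the 10 genes lay between -0.30 (Tusc2) and 0.32 (Adamts8).

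Because SOX9 is the factor that was deleted, promoters were read for the core letters that SOX factors recognise. RefSeq windows (GRCm38.p6) of 250 bases before to 50 bases after the start of transcription were at hand for 7 of the 10 genes. The motifs were ACAAAG or AACAAT or ACAATG on either strand, and the last pair can overlap by sharing 5 letters. Of the 7 windows, those of Hyal1 and Adamts1 held a match, and those of Vcan, Hapln1, Cd44, Hyal2 and Adamts9 held none. For scale, 33.2% of 32851 such windows in the genome hold at least 1 of the motifs and 18.7% hold ACAAAG, so a match is common and describes letters, not binding. Hyal1 and Adamts1 are shown for their matches, in capitals, and Cd44 is shown without one, as the gene with the highest relative ratio among the 7. They lie at chr9:107576700-107576999 (plus strand), chr16:85803064-85803363 (minus strand) and chr2:102901616-102901915 (minus strand).
Hyal1: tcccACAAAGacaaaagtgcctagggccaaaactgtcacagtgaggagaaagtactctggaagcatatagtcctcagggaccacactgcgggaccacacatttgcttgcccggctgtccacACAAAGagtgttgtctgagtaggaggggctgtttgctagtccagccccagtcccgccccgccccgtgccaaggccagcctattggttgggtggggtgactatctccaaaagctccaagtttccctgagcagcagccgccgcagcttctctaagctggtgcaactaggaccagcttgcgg
Adamts1: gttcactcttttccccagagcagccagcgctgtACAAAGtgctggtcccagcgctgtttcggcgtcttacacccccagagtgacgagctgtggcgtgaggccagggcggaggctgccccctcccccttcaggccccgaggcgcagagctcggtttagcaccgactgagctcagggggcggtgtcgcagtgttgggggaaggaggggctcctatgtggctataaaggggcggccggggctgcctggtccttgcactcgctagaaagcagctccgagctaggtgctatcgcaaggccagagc
Cd44: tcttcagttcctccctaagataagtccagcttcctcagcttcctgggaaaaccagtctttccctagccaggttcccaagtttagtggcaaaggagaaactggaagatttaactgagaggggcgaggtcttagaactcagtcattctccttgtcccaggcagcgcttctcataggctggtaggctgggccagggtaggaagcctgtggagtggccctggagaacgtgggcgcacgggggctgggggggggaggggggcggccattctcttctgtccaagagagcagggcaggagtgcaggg
Hyal1 has ACAAAG at both of its matches and Adamts1 at its single match, and their relative log2 ratios were -0.16 and 0.11. Whether SOX9 peaks of the AVC lie near any of the 10 genes was not analysed here, because the peaks are placed on another build.

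The rest of the hyaluronan pathway was read from lists drawn up by role. Of 9 further genes of hyaluronan synthesis, none met the 1.5-fold rule, and their median relative log2 ratio was 0.0050. Ugdh, which makes the UDP-glucuronic acid that hyaluronan and chondroitin sulfate are built from, stood at 108 nFPKM in WT and 77.5 nFPKM in cKO (-0.37). Ugp2, a step earlier in the same supply, stood at 233 and 261 nFPKM (0.27), and Gfpt1, the entry enzyme of the hexosamine branch, at 53.6 and 54.8 nFPKM (0.14). The other hyaluronan synthases were weak. Has1 stood at 1.89 and 1.70 nFPKM and Has3 at 3.41 and 3.95 nFPKM, so Has2 was the most abundant synthase in both genotypes.

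Of further genes of hyaluronan breakdown 5 passed the filter, and all 5 stood above the all-transcript median (list median 0.24) and were also higher in nFPKM. The 1.5-fold rule was met by 1, 9930013L23Rik, which RefSeq now names Cemip and which encodes a hyaluronan-depolymerising protein, at 7.98 nFPKM in WT and 11.7 nFPKM in cKO (0.61). Tmem2, which RefSeq now names Cemip2 and which encodes a related surface protein, stood at 162 and 177 nFPKM (0.24). Hexa and Gusb, lysosomal enzymes that trim the ends of the fragments, stood at 74.7 and 82.1 nFPKM (0.24) and at 50.8 and 59.6 nFPKM (0.33). Hyal3 was below the filter, at 0.75 and 0.35 nFPKM. Hyal1 (-0.16) and Hyal2 (-0.04), described above and not on this list, were below the all-transcript median and lower in nFPKM. For scale, 4407 of the 13793 transcripts past the filter were higher in nFPKM in cKO.

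Among 10 further hyaluronan receptors and binders that passed the filter, 3 were above and 7 below the all-transcript median, and the median was -0.21. The 1.5-fold and the 2-fold rule were met by Ptx3, whose pentraxin helps to crosslink hyaluronan around the mouse egg, at 18.6 nFPKM in WT and 6.34 nFPKM in cKO (-1.31). Tnfaip6, which transfers heavy chains onto hyaluronan in that same matrix, stood at 6.15 and 5.74 nFPKM (0.02). The most abundant of the list were Hmmr, a hyaluronan-binding protein that also acts at the mitotic spindle, at 81.5 and 89.9 nFPKM (0.24), Stab1, a scavenger receptor of endothelium and macrophages, at 57.1 and 72.5 nFPKM (0.45), and Habp4, at 54.9 and 41.2 nFPKM (-0.30).

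Of 9 other lecticans and matrix partners of versican, none met the 1.5-fold rule, and the median was 0.29. Fn1, which encodes fibronectin, was the most abundant, at 722 nFPKM in WT and 865 nFPKM in cKO (0.37). Fbn2, a fibrillin, stood at 289 and 252 nFPKM (-0.09) and Fbln2, a fibulin that binds versican, at 182 and 120 nFPKM (-0.50). Acan, which encodes the cartilage relative of versican, was near the filter, at 0.83 and 1.23 nFPKM.

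Of 13 other ADAMTS proteases, 2 met the 1.5-fold rule in the higher direction and none in the lower, with a median of 0.08. They were Adamts18, at 0.36 nFPKM in WT and 2.09 nFPKM in cKO (1.29, past 2-fold as well), and Adamts4, which cleaves aggrecan and versican, at 2.83 and 4.36 nFPKM (0.59). Both were weak, and Adamts18 passed the filter through its cKO value alone. The most abundant were Adamts19, at 58.1 and 40.7 nFPKM (-0.40), Adamts10, at 36.4 and 29.3 nFPKM (-0.20), and Adamts8. Among 6 ADAMTS-like proteins, which lack the protease domain, Adamtsl1 was lower (10.1 and 4.57 nFPKM, -0.89) and Adamtsl3 (1.41 and 2.76 nFPKM, 0.75) and Thsd4 (12.2 and 19.3 nFPKM, 0.72) were higher past 1.5-fold. Adamtsl2 was the most abundant of them in WT, at 24.1 and 18.6 nFPKM (-0.25).

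Of 13 inhibitors, activators and other regulators of such proteases, A2m alone met the 1.5-fold rule, at 3.29 nFPKM in WT and 5.29 nFPKM in cKO (0.66). It encodes a broad protease inhibitor of plasma. The membrane-type metalloproteases Mmp14 (172 and 144 nFPKM, -0.15) and Mmp15 (152 and 153 nFPKM, 0.12) and the gelatinase Mmp2 (146 and 112 nFPKM, -0.27) were the most abundant. Timp3, an inhibitor known to act on ADAMTS enzymes, stood at 131 and 106 nFPKM (-0.19). Furin, which removes the prodomain of many ADAMTS enzymes, stood at 97.3 and 83.6 nFPKM (-0.11).

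Versican carries chondroitin sulfate, and of 27 genes that build and sulfate these chains 2 met the 1.5-fold rule, both lower. The median of the list was -0.07, with 12 above and 15 below the all-transcript median. Papss2, which makes the sulfate donor, stood at 64.7 nFPKM in WT and 7.20 nFPKM in cKO (-2.90), while its relative Papss1 stood at 61.5 and 53.3 nFPKM (-0.10). Chst3, a chondroitin 6-O-sulfotransferase, was weak, at 3.30 and 1.17 nFPKM (-0.88). The chain-building Chsy1 stood at 98.9 and 73.6 nFPKM (-0.32). Impad1, a phosphatase that clears a by-product of sulfation, stood at 125 and 111 nFPKM (-0.07), and Fam20b, the xylose kinase of the linker, at 70.0 and 68.5 nFPKM (0.07).

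**Figure D4:**
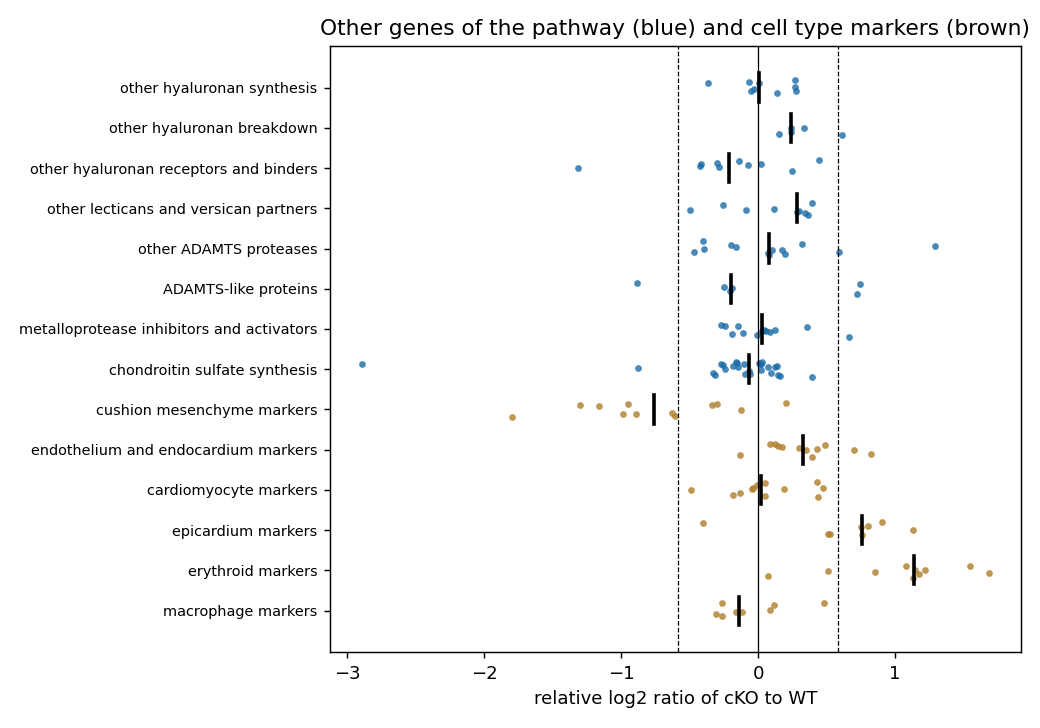
Relative log2 ratio of cKO to WT for the other genes of the pathway (blue points) and for cell type markers (brown points) that passed the filter, 1 point per gene, with the median of each list (black bar), the all-transcript median (solid line) and 1.5-fold (dashed lines). Papss2 at -2.90 is the lowest pathway gene, and the medians of the marker lists run from -0.76 for cushion mesenchyme to 1.14 for erythroid cells.

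Markers of the cell types in the canal differed between the genotypes alongside these values. Of 12 cushion mesenchyme markers, 11 were lower in cKO and 5 of them past 2-fold, and their summed level was 3481 nFPKM in WT and 2132 nFPKM in cKO. This list holds Sox9 itself and other genes chosen with earlier results known. Of 12 endothelial and endocardial markers, 10 were higher in nFPKM, and the sum was 1052 and 1235 nFPKM. The 12 cardiomyocyte markers were divided, 4 higher and 8 lower, with sums of 37269 and 38528 nFPKM. Of these, 6 stood above and 6 below the all-transcript median. Of 8 epicardial markers, 7 were higher (sums of 247 and 341 nFPKM). Of 10 erythroid markers in the table, 9 were higher (sums of 41083 and 93209 nFPKM). Of 8 macrophage markers, 2 were higher and 6 lower (sums of 143 and 119 nFPKM), and 3 stood above and 5 below that median. For scale, 4407 of all transcripts past the filter were higher in nFPKM and 9386 lower, near the shares of the cardiomyocyte and macrophage lists. No marker found in the table was at 0 in either genotype. The summed mesenchyme markers were 0.61-fold in cKO, but the markers differed widely among themselves. Their relative log2 ratios ran from -1.80 for Lum to 0.20 for Msx2. Postn, at 973 nFPKM in WT and 487 in cKO, was the most abundant of them in WT. The part of cell makeup in the differences of Has2, Adamts15, Cd44, Adamts5 and Adamts9 was not tested.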

How the data were processed

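RNA-seq values came from WT and Sox9 cKO AVC, grouped by the genotype labels. Per the file headers, the authors deposited 1 FPKM value per transcript and genotype, normalized further (nFPKM) with duplicate libraries merged. TopHat2, Cufflinks, edgeR and the build mm9 are named in the submitters' processing notes with no version or role. What the further normalization did is not stated there. The authors' deposited log2 fold change has no p-value beside it and served as an alternative. Sums were 961487 nFPKM in WT and 960481 in cKO.

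Log2 ratios used a pseudocount of 1, which understates the ratios of weak genes. Transcripts under 1 nFPKM in both genotypes, 904 in number, were left out, and the median of the rest was subtracted. The table lists 1 transcript identifier per member. RefSeq holds 5 for Vcan, 6 for Cd44, 2 for Hyal1 and 2 for Adamts15, so isoforms were not separated. Sources do not say how reads shared by isoforms were assigned. With 1 value per genotype, no test was made.

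The members, lists and rules of size were chosen with earlier results of these data known. Named genes were the members, Sox9, and of each pathway list all past 1.5-fold and the 3 of highest level. Xrcc4, Cyyr1, Tusc2, Has1, Has3, Hyal3, Tnfaip6, Acan, Timp3, Furin and Papss1 were named after their values were seen. Promoter windows came from RefSeq (GRCm38.p6), and the SOX9 peak lists were not used here. Python 3.11.15, numpy 2.4.6, pandas 2.3.3 and matplotlib 3.10.9 were used. The median and a 2-fold rule applied after its subtraction were tested on simulated data.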

Additional observations from a re-analysis of the deposited data

How the results depend on the processing

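Values were recomputed with pseudocounts of 0.1 and 5, without subtraction of the median, from the authors' deposited log2 fold change, by summing transcripts of a gene, and after rescaling without erythroid genes. That last step was also tried without subtraction of the median, an alternative chosen after seeing the data. Of the 10 genes, 9 kept their direction in all 7 settings. All 7 reworked the same merged value per genotype, so agreement among them was largely built in and does not measure replicate error. Each of the 10 genes has 1 transcript, so summing transcripts could move its ratio only through the median. A median shift of 0.11 set the deposited fold change above the ratio before centring, which brought it close to the relative ratio. Hapln1 ran from -0.04 to 0.07, Has2 from -0.50 to -0.36, Cd44 from 0.27 to 0.39, Adamts5 from 0.35 to 0.52, Adamts9 from 0.25 to 0.36 and Adamts15 from -0.62 to -0.46. Without the median subtracted, 1 of the 10 genes, Adamts15, was past 1.5-fold. The erythroid genes held 4.27% of summed nFPKM in WT and 9.70% in cKO, and without them the all-transcript median was -0.03 in place of -0.11.

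Counts over all transcripts depended on the pseudocount. At 0.1, 176 were past 2-fold higher and 335 lower, and 662 were past 1.5-fold higher and 680 lower, beside 475 and 389 at a pseudocount of 1. At 5, 41 were past 2-fold in each direction (41 higher, 41 lower), and 181 past 1.5-fold higher and 134 lower. With a filter of 5 nFPKM, 291 were past 1.5-fold higher and 227 lower. The ratio of summed proteases to Vcan (log2 0.12) stayed positive when each protease was left out, from 0.04 without Adamts9 to 0.24 without Adamts15. Vcan, at 530 nFPKM in WT and 484 in cKO, was the denominator each time, so its part in the positive sign was not tested. The full protease sum was itself slightly lower in cKO, at 167 nFPKM against 168 in WT. It was also lower without Adamts1, Adamts5 or Adamts9, and higher only without Adamts15 (146 against 136 nFPKM). The median of the other hyaluronan synthesis genes went from 0.0050, near 0, to -0.04 at a pseudocount of 0.1. No paired analysis was possible because the table gives 1 merged value per genotype. Depth and replicate spread are unknown, so differences of this size may lie within the error.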
